A study of Mus musculus with 12 samples.

Results

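The brain arm of a mouse study of the vault RNA gene Vaultrc5 is described here. It comprised 6 of the 12 libraries of the series, 3 from wild-type brains and 3 from Vaultrc5-/- brains, and the other 6 came from livers of the same genotypes. The mice were male and 7 to 9 weeks old. The genotype field of the controls reads wild-type, and the extraction protocol writes their genotype as Vaultrc5+/+, while the titles of the control samples carry the tag flx. Whether the control animals carry a floxed allele, how the knockout was made and which parts of the brain were taken are not given in the sources used here. Total RNA was extracted with TRIzol, treated with DNase, depleted of ribosomal RNA and sequenced single-end from a stranded ligation library. The labels list each brain as a sample of its own but name no animal, so p-values measure the spread between these samples.

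Vaults are large barrel-shaped ribonucleoprotein particles of the cytoplasm. Their shell is built from major vault protein (Mvp), and the particle also holds the poly(ADP-ribose) polymerase Parp4, the RNA-binding protein Tep1 and short vault RNAs made by RNA polymerase III. Vault RNAs have been linked to autophagy through the receptor p62 (Sqstm1), to the double-stranded RNA sensor PKR (Eif2ak2) and to ERK signalling at synapses, and those pathways were therefore followed here together with markers of the brain's cell types and regions.

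The targeted gene was examined first. In wild-type brains 1 to 3, Vaultrc5 drew 4, 1 and 4 counts, and each knockout brain drew 0. The wild-type level was 0.176 ± 0.104 CPM (counts per 1000000 of the scaled library size; SD, n = 3), which is at the level of 3 counts in a brain library (0.165 to 0.198 CPM), so no fold was computed. In the livers of the same series, which were deeper, the counts were 33, 39 and 48 in wild type and 0, 0 and 0 in knockout. The 2 tissues were separated by their markers: the synaptic gene Snap25 had 31003 to 40259 counts in the brains, and the hepatocyte gene Alb had 0 to 5.

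The brain libraries held between 14844971 and 18567381 counts, and no pair of the same genotype agreed within counting noise, as a library deposited in duplicate would (chi-square per degree of freedom 27.2 to 54.5). The first principal component of the 10334 genes with a mean of at least 10 CPM took 65.9% of the variance and did not separate the genotypes. Its scores were 30.7, −33.4 and 4.1 in wild-type brains 1 to 3 and 24.99, −28.4 and 2.0 in knockout brains 1 to 3. Cerebellar genes carried the positive end. The summed level of 10 cerebellar markers, among them the granule cell genes Gabra6 and Cbln3 and the Purkinje cell gene Pcp2, was 2192, 45.2 and 515 CPM in the wild-type brains and 2028, 46.0 and 871 CPM in the knockout brains. Each genotype thus had a library rich in cerebellar RNA, a library nearly without it and a library in between. In bulk tissue, fewer cells of a type and less RNA per cell cannot be told apart.

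Some libraries also stood apart in other ways. Knockout brain 3 held transcripts of the exocrine pancreas: 18 acinar genes such as Pnlip, Amy2a, Cela2a and Cpa1, which encode digestive enzymes, took 188359 counts (1.13% of that library) against 42 to 75 counts in each of the other 5 brains. Most of these genes missed the filter on low counts because they were detected in that library alone, and the genes left out of the test took 1.97% of its counts against 0.137% to 0.176% in the others. Wild-type brain 3 was rich in hindbrain and white-matter RNA. Its 11 hindbrain markers summed to 258 CPM, against 24.2 and 0.551 CPM in the other wild-type brains and 14.2, 1.18 and 7.97 CPM in the knockout brains. Hox genes, which are switched on in the hindbrain and spinal cord and silent further forward, summed to 81.6 CPM over 19 genes in that library and to at most 1.30 CPM in any other. Knockout brain 2 carried neutrophil granule transcripts, 20.4 CPM over 8 genes against 1.43 to 3.96 CPM elsewhere. For lists of 5 or more tested genes, the median without wild-type brain 3 or knockout brain 3 is added where its sign turned. The other libraries also moved these medians: of the 48 lists with at least 5 tested genes, the median of 33 took the other sign with some library left out.

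**Figure D1:**
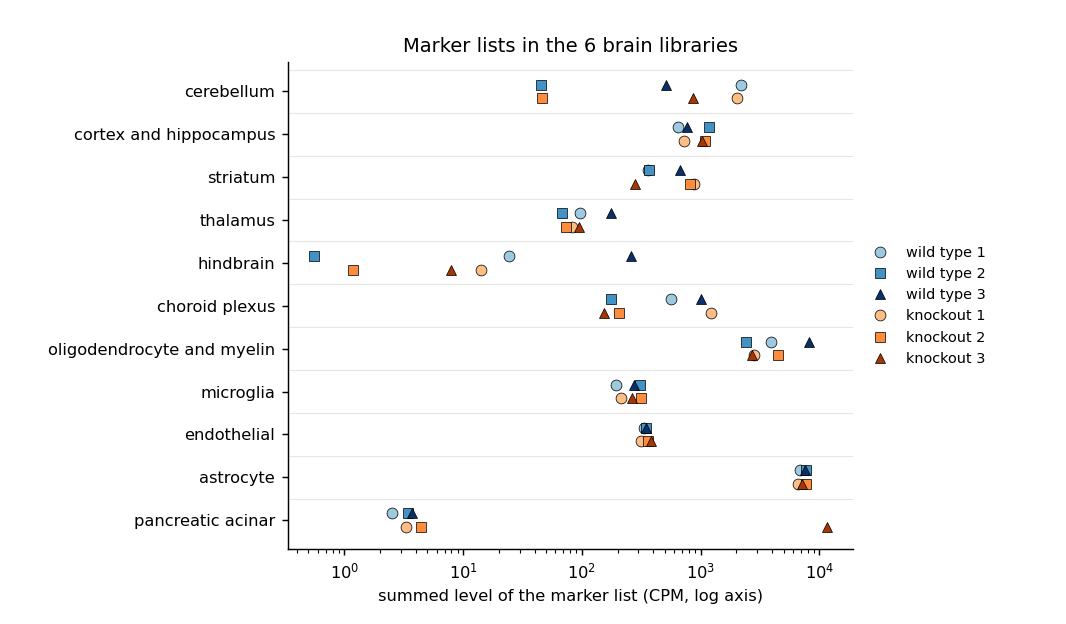
Summed level of 11 marker lists in each of the 6 brain libraries, in CPM on a log axis, with wild-type libraries in blue above and knockout libraries in orange below. Cerebellar content runs from 45.2 to 2192 CPM within the wild-type group and from 46.0 to 2028 CPM within the knockout group, hindbrain and myelin markers are high in wild type 3, and pancreatic acinar genes reach 11632 CPM in knockout 3.

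Against this spread, no gene passed the test for a difference between knockout and wild-type brain. Of 18075 genes tested with edgeR's quasi-likelihood test, 0 (0%) had a Benjamini-Hochberg adjusted p under 0.05, and 0 passed an adjusted p of 0.1. At an unadjusted p under 0.05 there were 122 genes (0.675%), of which 65 (0.36%) were higher and 57 (0.315%) lower in the knockout. DESeq2's Wald test also called 0 genes and gave 78 (0.432%) with an unadjusted p under 0.05. With 1 library left out, edgeR's count at an unadjusted p under 0.05 ranged from 82 (without wild-type brain 3) to 615 (without wild-type brain 2). It was 298 without wild-type brain 1 and 203 without knockout brain 1. When the cerebellar marker level of each library entered the fit as a covariate, the count was 301 (1.67%). With replicate number as a block it was 406 (2.25%). Evenly spread p-values would put a share of 0.05 of the genes under this threshold. The smaller shares found here do not show that the knockout had no effect. The median log2 fold change over all genes was −0.01 and the median absolute log2 fold change was 0.10, and 8722 genes (48.3%) lay above 0. A log2 fold change of at least 1 in either direction was estimated for 131 genes (0.725%). Large estimates included genes of the libraries that stood apart. The acinar transcription factor gene Rbpjl was at 0.357, 0.662 and 0.818 CPM in wild type and at 0.462, 1.006 and 15.8 CPM in knockout. The glycine receptor gene Glra1, which is expressed in brainstem and spinal cord, was at 4.28, 0.441 and 68.6 CPM in wild type and at 1.65, 0.828 and 1.91 CPM in knockout. The log2 fold change of Glra1 was −4.06 with all 6 libraries and −0.68 without wild-type brain 3.

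**Figure D2:**
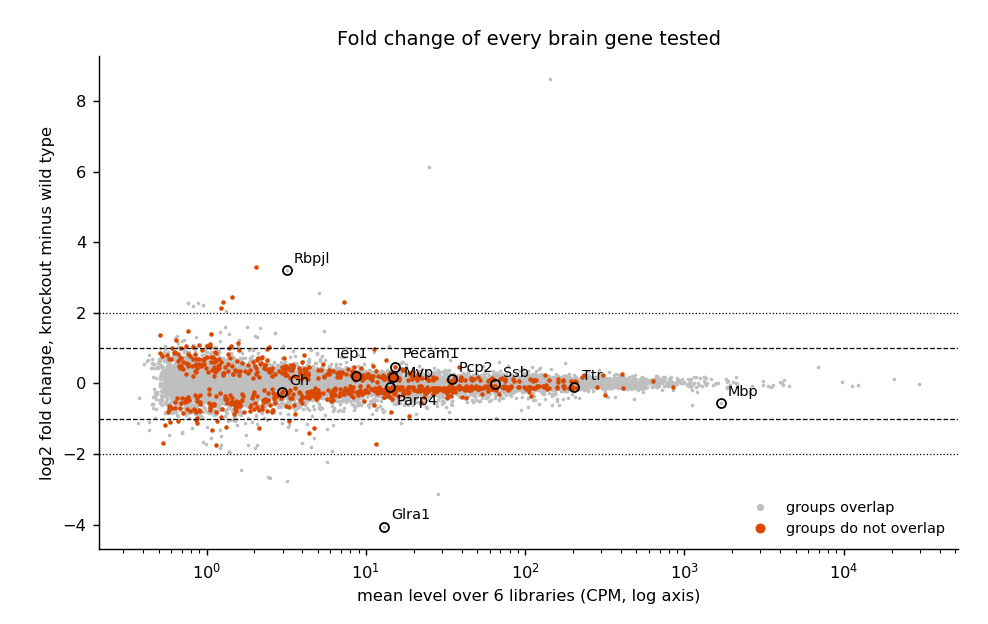
Log2 fold change (knockout minus wild type) of the 18075 genes tested against their mean level over the 6 libraries in CPM on a log axis; orange points are the 766 genes whose groups do not overlap, dashed lines mark 2-fold and dotted lines 4-fold. Mvp, Tep1, Parp4 and Ssb lie close to 0, and 131 genes lie at or beyond the dashed lines.

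How large a difference the data leave room for was read from the 95% interval of each gene's fold change. The interval lay within 1.5-fold in both directions for 9191 genes (50.8%), within 2-fold for 13879 (76.8%) and within 4-fold for 17385 (96.2%), and its median half-width corresponded to 1.38-fold. The bound depended on the level of the gene. Of genes with a mean of 10 to 100 CPM, 94.1% were bounded within 2-fold, and of genes over 100 CPM, 96.0%. The share was 62.9% for genes at 1 to 10 CPM and 8.93% for genes under 1 CPM. For most genes under 1 CPM the data thus left room for a 2-fold difference. The share bounded within 2-fold of these same genes was 70.2% without wild-type brain 3 and 68.8% without knockout brain 3. It was 82.3% when the cerebellar marker level of each library entered the fit as a covariate.

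**Figure D3:**
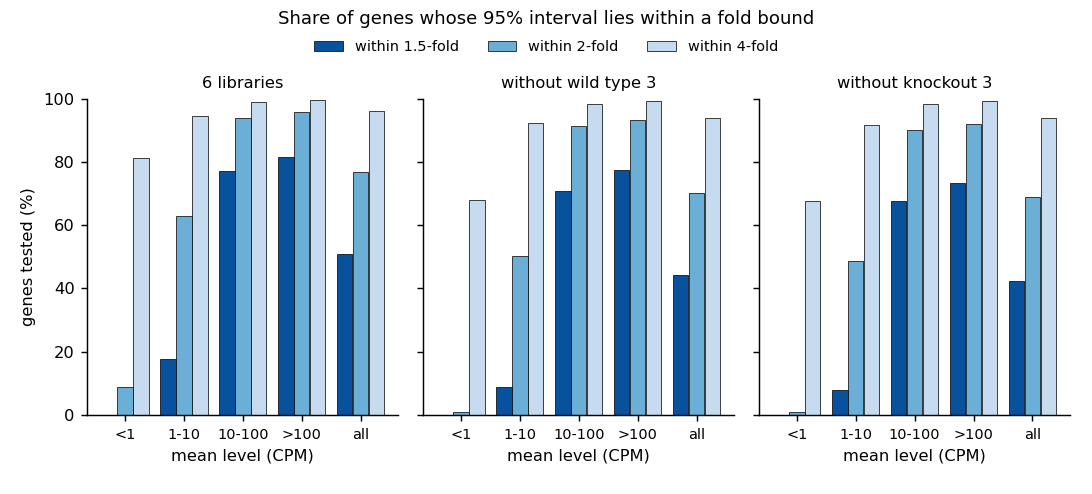
Percent of the genes tested whose 95% interval of the fold change lies within 1.5-fold, 2-fold or 4-fold (bars from dark to light), by mean level in CPM, with all 6 libraries and with wild type 3 or knockout 3 left out. With all libraries, the share within 2-fold grows from 8.93% of genes under 1 CPM to 96.0% of genes over 100 CPM.

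Among the narrowest intervals was that of the endosomal adaptor gene Gripap1. It was at 67.7, 67.0 and 65.8 CPM in wild type and at 73.6, 71.4 and 71.8 CPM in knockout, with an interval of 0.96 to 1.22-fold. The Golgi gene Tmf1, the phospholipase gene Plcg1 and the nucleotidase gene Nt5c2 had intervals of 0.87 to 1.11, 0.90 to 1.14 and 0.89 to 1.13-fold. A narrower interval still was returned for AI467606 (0.98 to 1.02-fold), but its estimated difference was near 0, where the standard error taken from the test statistic shrinks by construction; it was the only gene whose standard error differed by more than 1.5 times from that of the information matrix. At the other end, 91 of the 10334 genes with a mean of at least 10 CPM had intervals reaching past 4-fold. They included the cerebellar genes Fat2 (0.04 to 33.5-fold) and Cbln3 (0.04 to 29.1-fold) and the choroid plexus gene Ttr. Ttr encodes transthyretin, and its level was 217, 0.276 and 416 CPM in wild type and 584, 2.60 and 3.58 CPM in knockout, so that each genotype spanned more than the difference between them.

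The levels of the 2 groups did not overlap for 766 genes (4.24%), of which 318 (1.76%) were higher and 448 (2.48%) lower in the knockout. Among those with a mean of at least 1 CPM, the 8 of smallest p in each direction are described here. None passed the test across all genes, with an adjusted p of 1.00 for each in edgeR. The smallest p belonged to Pecam1 (ENSMUSG00000020717; chromosome 11, 106654217 to 106750628, GRCm38), an adhesion receptor of endothelial cells. Its level was 12.5, 13.6 and 12.7 CPM in wild type and 16.6, 16.9 and 19.8 CPM in knockout. The log2 fold change was 0.46 ± 0.12 (SE), with an interval of 1.13 to 1.67-fold and an unadjusted p of 0.0061. It was 0.45 without wild-type brain 3 and 0.38 without knockout brain 3. The von Willebrand factor gene Vwf, also endothelial, had a log2 fold change of 0.45 ± 0.22 with overlapping groups. Of 16 endothelial markers, 1 (6.25%, against 1.76% of all genes) was higher in the knockout without overlap, and all 16 intervals lay within 2-fold. The median log2 fold change was 0.00 (0.02 without wild-type brain 3 and 0.01 without knockout brain 3).

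The ribosomal protein gene Rpl36a was at 8.54, 9.59 and 9.54 CPM in wild type and at 11.5, 12.3 and 15.4 CPM in knockout, a log2 fold change of 0.50 ± 0.15. Eppk1, which encodes the cytoskeletal linker epiplakin, was at 0.856, 0.827 and 0.734 CPM in wild type and at 1.48, 1.47 and 1.42 CPM in knockout. These low levels rest on few reads, and the Eppk1 interval ran from 1.19 to 2.84-fold. Sh2d4b, an SH2 domain gene, was at 2.04 to 2.50 CPM in wild type and at 3.15 to 4.42 CPM in knockout. The other 4 on the higher side were the non-coding genes or pseudogenes BX649560.1, Gm15808, Gm27177 and 2900089D17Rik. Gm27177 had the largest estimate of the 16, a log2 fold change of 3.30 ± 0.99, from 1.06, 0.055 and 0 CPM in wild type to 3.75, 2.92 and 4.42 CPM in knockout. In 2 of the wild-type libraries its level was under that of 3 counts, and the estimate was 6.69 without wild-type brain 1. It lies antisense to Entpd4b and Loxl2 and overlaps their exons.

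On the lower side the coding genes were Mkks and Ankrd34b. Mkks encodes a chaperonin-like protein of the cilium's basal body and was at 17.1, 17.4 and 19.4 CPM in wild type and at 13.6, 15.2 and 13.2 CPM in knockout, a log2 fold change of −0.36 ± 0.11. Ankrd34b, an ankyrin repeat gene, was at 25.2, 21.1 and 32.5 CPM in wild type and at 19.3, 17.5 and 18.3 CPM in knockout. Its log2 fold change was −0.52 with all libraries and −0.33 without wild-type brain 3, its highest library. The other 6 were the processed pseudogenes Gm10698, Gm11847 and Gm8430 and the non-coding genes Gm47863, Gm44645 and Gm43817, with log2 fold changes from −1.42 (Gm8430) to −0.79 (Gm43817). Of these 16 genes 6 are annotated as protein coding and 4 as processed pseudogenes, 7 overlap an exon of another gene, and 7 had counts that were not whole in at least 4 libraries. The values of genes that overlap or share reads with others are uncertain, since the counting rule is not given in the sources used here.

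**Figure D4:**
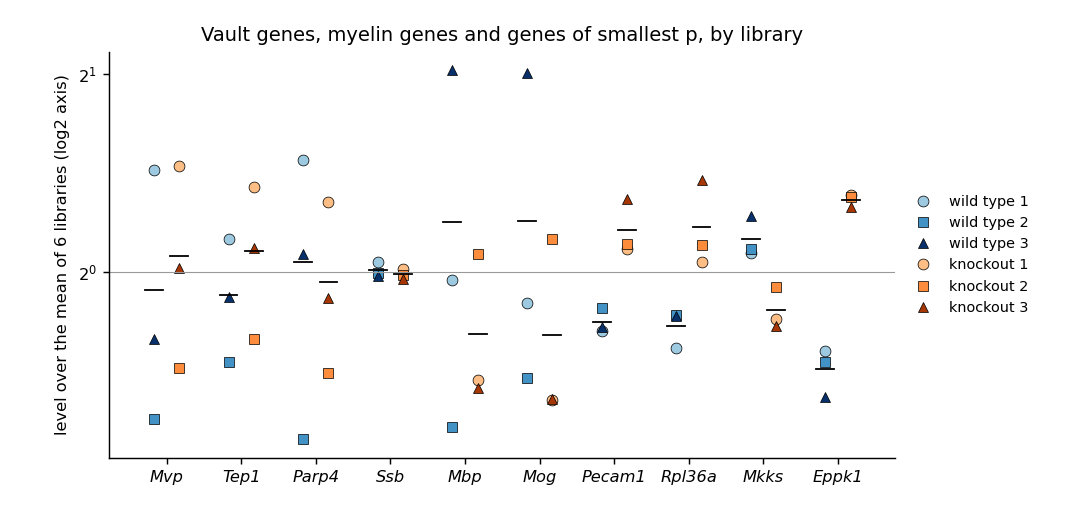
Level of 10 genes in each brain library divided by the gene's mean over the 6 libraries, on a log2 axis, with wild type in blue on the left and knockout in orange on the right of each gene; short lines are group means. Mvp, Tep1 and Parp4 are highest in library 1 and lowest in library 2 of both genotypes, the myelin genes Mbp and Mog are high in wild type 3, and the groups of Pecam1, Rpl36a, Mkks and Eppk1 do not overlap.

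Transcripts of the particle's own proteins did not pass the test, and their ranges overlapped between genotypes. Mvp was at 21.1, 8.83 and 11.7 CPM in wild type and at 21.4, 10.6 and 14.98 CPM in knockout, a log2 fold change of 0.17 ± 0.38 with an interval of 0.60 to 2.11-fold. The estimate for Mvp was 0.06 without wild-type brain 3. Tep1 was at 9.75, 6.34 and 7.95 CPM in wild type and at 11.7, 6.86 and 9.45 CPM in knockout, a log2 fold change of 0.22 ± 0.25 with an interval of 0.77 to 1.75-fold. Parp4 was at 20.9, 7.88 and 15.1 CPM in wild type and at 18.1, 9.94 and 12.9 CPM in knockout, a log2 fold change of −0.10 ± 0.38 with an interval of 0.50 to 1.73-fold. The 3 genes followed the cerebellar markers in both genotypes, being highest in brain 1 and lowest in brain 2. With the cerebellar marker level as a covariate their log2 fold changes were 0.16, 0.18 and −0.09.

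Proteins that bind or process vault RNA were bounded more tightly. Ssb encodes the La protein, which binds the 3′ ends of RNA polymerase III transcripts, and was at 64.3 to 67.3 CPM in wild type and at 63.5 to 65.7 CPM in knockout, with an interval of 0.87 to 1.11-fold. The RNA methyltransferase gene Nsun2, the splicing factor gene Srsf2, the Ro60 gene Trove2 and the RNA 5′-phosphatase gene Dusp11 had log2 fold changes of −0.02, 0.01, 0.06 and 0.02. With Vaultrc5, Mvp, Tep1 and Parp4, the genes that bind or process vault RNA form a list of 9, of which 8 were tested. In that list 0 had an unadjusted p under 0.05 in edgeR, and the interval lay within 1.5-fold for 5 and within 2-fold for 7. The 21 tested genes that neighbour Vaultrc5, including members of the protocadherin alpha cluster, had a median log2 fold change of 0.03. 18 of them were bounded within 2-fold, and 1 (4.76%, against 2.48% of all genes), the complex I gene Ndufa2, was lower in the knockout without overlap.

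RNA polymerase III itself was bounded throughout. All 22 of its subunit and regulator genes had intervals within 1.5-fold, with log2 fold changes from −0.12 (Polr3c) to 0.09 (Polr3f) and a median of −0.01 (0.00 without knockout brain 3). Other transcripts of this polymerase spread more widely between libraries. The 7SK RNA gene Rn7sk, which restrains transcription elongation, was at 15063, 11029 and 11449 CPM in wild type and at 12859, 11291 and 12555 CPM in knockout, with an interval of 0.76 to 1.26-fold. The Y RNA genes Rny1 and Rny3 had log2 fold changes of −0.50 ± 0.34 and −0.52 ± 0.44, and both were lowest in knockout brain 3, at 25.01 and 10.1 CPM. The signal recognition particle RNAs Rn7s1 and Rn7s2 are near-identical copies that share reads, and their separate values are uncertain.

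Autophagy genes were among the most closely bounded. Autophagy delivers cytoplasmic cargo to lysosomes, with Map1lc3 and Gabarap proteins on the membrane and receptors such as p62 binding the cargo. All 23 core autophagy genes had intervals within 1.5-fold, 0 had an unadjusted p under 0.05, and the median log2 fold change was −0.02 (0.01 without knockout brain 3). The extremes were Map1lc3a at −0.11 ± 0.10 and Becn1 at 0.11 ± 0.11. The p62 gene Sqstm1 was at 189, 246 and 237 CPM in wild type and at 199, 235 and 218 CPM in knockout, with an interval of 0.78 to 1.20-fold. Of 10 receptor genes 9 were bounded within 1.5-fold and all 10 within 2-fold. Of 23 lysosomal genes, among them Lamp1 (−0.21 ± 0.13) and Hexa (0.10 ± 0.16), 20 were bounded within 1.5-fold and all 23 within 2-fold. The estimate for Lamp1 was −0.07 without wild-type brain 3.

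Interferon-stimulated genes, which report on the sensing of foreign RNA, were weakly expressed and less tightly bounded. Of 23 genes 19 were tested, and Isg15, Mx1, Oas1a and Zbp1 stayed below the filter. The median log2 fold change was −0.05 (0.01 without wild-type brain 3), and 16 of 19 intervals lay within 2-fold. The PKR gene Eif2ak2 was at 7.91, 6.62 and 10.0 CPM in wild type and at 7.65, 7.33 and 7.41 CPM in knockout, with an interval of 0.67 to 1.23-fold. The smallest p was that of Ifit3, at 4.97 to 6.53 CPM in wild type and 3.83 to 5.05 CPM in knockout, a log2 fold change of −0.40 ± 0.19. Its group ranges overlapped. The RNA sensor gene Ddx58, at 4.99, 5.24 and 4.73 CPM in wild type and at 4.55, 4.67 and 4.51 CPM in knockout, was the 1 member of 19 lower without overlap (5.26%, against 2.48% of all genes). Without wild-type brain 3 there were 2 higher and 3 lower (3.92% and 4.28% of all genes). Of 15 antigen presentation genes, 3 (20%, against 1.76% of all genes) were higher in the knockout without overlap: the class II gene H2-Ab1 (0.70 ± 0.36), the class I gene H2-K1 (0.22 ± 0.14) and the class I transactivator gene Nlrc5 (0.70 ± 0.33). Their unadjusted p-values were 0.10, 0.16 and 0.074. The constitutive light chain gene B2m had an interval of 0.88 to 1.23-fold. Without wild-type brain 3 the count was 3 higher and 0 lower (3.92% of all genes were higher without overlap), and without knockout brain 3 it was 3 higher (4.13% of all genes) and 3 lower (5.2% of all genes). The list's median log2 fold change was 0.09 with all libraries and −0.04 without knockout brain 3.

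Genes of the RAS and ERK cascade had a median log2 fold change of 0.02 (0.00 without knockout brain 3), and 15 of 16 were bounded within 2-fold. The kinase gene Map2k2 was the 1 member of 16 lower without overlap (6.25%, against 2.48% of all genes), at 36.4, 36.4 and 40.4 CPM in wild type and at 34.0, 33.4 and 31.4 CPM in knockout, a log2 fold change of −0.20 ± 0.09. The ERK feedback phosphatase gene Dusp6 (0.22 ± 0.37) and the transcription factor gene Etv5 (0.22 ± 0.22) varied more within each genotype than between them.

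Neuronal and synaptic genes gave no member past the test. Of 18 genes of the synaptic vesicle and its release, 17 were bounded within 2-fold and the median log2 fold change was 0.06, which ran from −0.04 (without wild-type brain 1) to 0.18 (without wild-type brain 2) and was 0.01 without wild-type brain 3. Snap25 was at 1856, 2220 and 1949 CPM in wild type and at 2045, 2169 and 1950 CPM in knockout, an interval of 0.85 to 1.23-fold. Of 26 genes of glutamate receptors and their scaffolds, 21 lay above 0 with a median of 0.08, and 22 were bounded within 2-fold. Shank3, a scaffold of the postsynaptic density, was at 271, 283 and 240 CPM in wild type and at 304, 277 and 322 CPM in knockout, a log2 fold change of 0.19 ± 0.11. The list's median was 0.03 without wild-type brain 3. The 18 voltage-gated sodium and calcium channel genes had a median of 0.09 (0.04 without wild-type brain 3), the 18 potassium channel genes 0.04, and the 20 GABA and glycine receptor genes 0.01 (−0.06 without wild-type brain 3). In the last group the GABA receptor gene Gabrg1 (−0.48 ± 0.20) and Glra1 had unadjusted p-values of 0.048 and 0.042. The ranges of both genes overlapped between genotypes.

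Cell type markers differed in how far the libraries allowed a comparison. Astrocyte markers had a median log2 fold change of −0.11 (−0.06 without wild-type brain 3), with Gja1, the gap junction gene, at 184, 156 and 202 CPM in wild type and 153, 155 and 156 CPM in knockout. Of 14 microglial markers 13 were bounded within 2-fold with a median of 0.03, which ran from −0.15 (without wild-type brain 1) to 0.18 (without wild-type brain 2); the transcription factor gene Sall1 was at 15.9 to 24.9 CPM in wild type and at 13.5 to 23.01 CPM in knockout. Glutamatergic neuron markers had a median of 0.17, which ran from −0.05 (without wild-type brain 1) to 0.58 (without wild-type brain 2) and was 0.01 without wild-type brain 3. GABAergic neuron markers had a median of 0.09, which ran from 0.02 (without knockout brain 2) to 0.20 (without wild-type brain 2). Mural cell markers had a median of 0.07 (−0.13 without knockout brain 3).

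Oligodendrocyte and myelin markers had the lowest median of the lists with at least 5 tested genes, −0.47, with all 14 members below 0. The myelin basic protein gene Mbp was at 1649, 987 and 3432 CPM in wild type and at 1163, 1805 and 1130 CPM in knockout. The myelin glycoprotein gene Mog was at 30.9, 23.8 and 69.1 CPM in wild type and at 22.03, 38.7 and 22.1 CPM in knockout. Wild-type brain 3 was the highest library for both. Without wild-type brain 3 the median of the list was 0.07, and Mbp and Mog stood at 0.05 and 0.01. The neurofilament gene Nefh and the astrocytic filament gene Gfap showed the same library: their log2 fold changes were −0.99 and −0.67 with it and −0.09 and 0.03 without it.

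Regional markers varied widely between libraries. Striatal markers had the highest median of the lists with at least 5 tested genes, 0.57, with all 11 members above 0 and 0 bounded within 2-fold. The phosphodiesterase gene Pde10a of striatal projection neurons was at 116, 126 and 190 CPM in wild type and at 274, 270 and 97.2 CPM in knockout. Knockout brains 1 and 2 were above every wild-type brain and knockout brain 3 below them all, and the dopamine receptor genes Drd1 and Drd2 followed the same order of knockout brains against wild type. The median of the striatal list was 1.01 without wild-type brain 3 and 0.95 without knockout brain 3, and 0.32 without knockout brain 1, 0.37 without knockout brain 2 and 0.42 without wild-type brain 1. No striatal member was without overlap when all libraries were kept or wild-type brain 3 was left out. Knockout brain 3 was the lowest knockout library for all 11 members, and without it 9 of 11 (81.8%, against 4.13% of all genes) were higher without overlap. Leaving out the lowest library of a group favours such separation, and the count is given as a description. The log2 fold change of Pde10a was 0.57 with all libraries, 0.82 without wild-type brain 3 and 0.92 without knockout brain 3. The unadjusted p-values were 0.20, 0.13 and 0.0081 in edgeR. The last was obtained after leaving out the knockout library that lay below every wild-type brain, so it is no evidence of a difference. Cerebellar markers had a median of 0.09, which ran from −1.04 (without knockout brain 1) to 1.86 (without wild-type brain 1) and was −0.18 without wild-type brain 3, and 0 of 10 were bounded within 4-fold. Markers of cortex and hippocampus had a median of 0.18, which ran from −0.03 (without wild-type brain 1) to 0.52 (without wild-type brain 2) and was 0.04 without wild-type brain 3, with Tbr1 at 83.7, 192 and 96.6 CPM in wild type and 99.0, 192 and 126 CPM in knockout. Choroid plexus markers had a median of −0.20, which was 0.52 without wild-type brain 3, 0.23 without knockout brain 3 and −2.02 without knockout brain 1. Whether these regional levels reflect the genotype or the pieces of tissue taken was not tested.

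**Figure D5:**
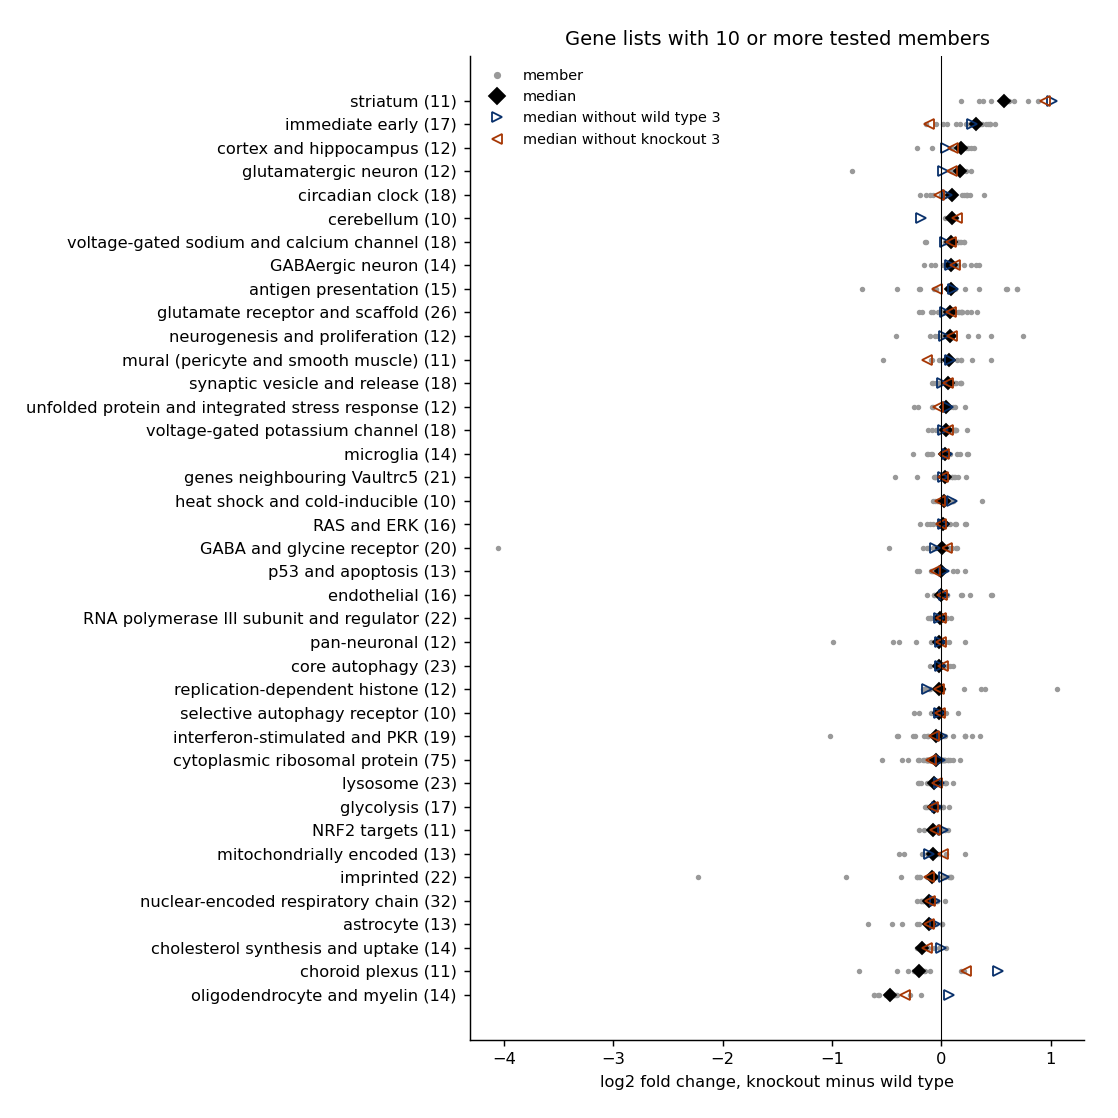
Log2 fold change (knockout minus wild type) of each tested member (grey points) of the gene lists with at least 10 tested members, sorted by the median (black diamonds); the number of tested members is in brackets. Open triangles give the median without wild type 3 (blue, pointing right) and without knockout 3 (red, pointing left); the myelin median moves from −0.47 to 0.07 without wild type 3, and the immediate early median from 0.32 to −0.11 without knockout 3.

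Nuclear genes of the respiratory chain were bounded tightly and lay slightly below 0. Of 32 tested nuclear genes of the respiratory chain and ATP synthase, all had intervals within 1.5-fold, 31 lay below 0, and the median log2 fold change was −0.11. In 7 of them (21.9%, against 2.48% of all genes) the knockout was lower without overlap, and 0 had an unadjusted p under 0.05. Ndufa2 was at 18.4, 18.2 and 19.8 CPM in wild type and at 16.6, 15.1 and 16.6 CPM in knockout, a log2 fold change of −0.22 ± 0.10. Cox4i1 was at 159, 160 and 178 CPM in wild type and at 144, 151 and 155 CPM in knockout (−0.14 ± 0.09). The others of the 7 were Atp5a1, Ndufa9, Ndufs3, Ndufv1 and Uqcrfs1, each between −0.18 and −0.10. The count was 7 without wild-type brain 3 (4.28% of all genes lower without overlap) and 9 without knockout brain 3 (5.2% of all genes), and the median was −0.06 without wild-type brain 3. The 13 mitochondrially encoded genes had a median of −0.08, which was 0.01 without knockout brain 3, and 11 of them were bounded within 2-fold.

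Exon length moved with the fold change in the same direction. Among coding genes with a mean of at least 10 CPM, the median log2 fold change was −0.04 in 91 genes of up to 1 kb. It was −0.04 at 1 to 2 kb, −0.02 at 2 to 4 kb and 0.00 in 2403 genes of over 8 kb. The share lower without overlap was 9.89% up to 1 kb, 3.87% at 1 to 2 kb and 3.41% at 2 to 4 kb. It was 2.10% at 4 to 8 kb and 1.46% over 8 kb. Without wild-type brain 3 the medians of the shortest and longest class were −0.01 and −0.01, and without knockout brain 3 they were −0.06 and 0.01. The median exon length was 2.15 kb over the tested respiratory chain genes, 1.83 kb over the ribosomal protein genes and 5.31 kb over all coding genes of at least 10 CPM, and the part of length in their values was not tested. The 75 ribosomal protein genes had a median of −0.05 (−0.01 without wild-type brain 3), and 73 were bounded within 2-fold. In 3 of them (4.00%, against 2.48% of all genes) the knockout was lower without overlap: Rps23 (−0.30 ± 0.11, unadjusted p 0.033), Rpl36 (−0.21 ± 0.11) and Rpl24 (−0.13 ± 0.09). This count was 13 (17.3%, against 5.2% of all genes) without knockout brain 3. Without wild-type brain 3 it was 4 (5.33%, against 4.28% of all genes), with 2 higher (2.67%, against 3.92% of all genes). Glycolytic genes had a median of −0.07, with all 17 bounded within 2-fold. Cholesterol genes had a median of −0.17 with 13 of 14 members not above 0, and the median was 0.00 without wild-type brain 3, the library in which Hmgcs1, the synthase of the pathway's entry, was highest at 286 CPM.

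Stress and activity programmes gave no called gene. Markers of the unfolded protein and integrated stress response had a median of 0.04 (−0.03 without knockout brain 3) with 12 of 12 tested genes within 2-fold, heat shock genes a median of 0.03 (−0.01 without knockout brain 3) with 10 of 10 within 2-fold, and NRF2 targets a median of −0.07 (0.02 without wild-type brain 3) with 11 of 11 within 2-fold. For p53 and apoptosis genes the median was 0.00 (0.02 without wild-type brain 3 and −0.06 without knockout brain 3), and the cell cycle inhibitor gene Cdkn1a was at 8.86 to 10.1 CPM in wild type and 10.0 to 11.9 CPM in knockout. Immediate early genes, which respond to neuronal activity, had a median of 0.32 with 15 of 17 above 0. Arc was at 120, 274 and 260 CPM in wild type and at 83.0, 350 and 406 CPM in knockout, and Fos at 35.6, 51.5 and 43.0 CPM in wild type and 19.1, 48.0 and 79.5 CPM in knockout. Brain 1 of each genotype was lowest for both genes and knockout brain 3 was highest. With 1 library left out, the median of the list ran from −0.11 (without knockout brain 3) to 0.71 (without knockout brain 1). Clock genes had a median of 0.09 (−0.02 without knockout brain 3), with the repressor gene Nr1d1 at 120, 137 and 129 CPM in wild type and 109, 122 and 154 CPM in knockout. Of 22 imprinted genes 18 were bounded within 2-fold with a median of −0.08 (0.03 without wild-type brain 3), and the largest estimate, −2.22 for Dlk1, rested on wild-type brain 3 (25.9 CPM, against 0.441 to 3.83 CPM in the others).

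The response of the brain was set against that of the liver with an interaction term in a joint edgeR fit of brain and liver libraries. None of 20141 genes (0%) reached an adjusted p of 0.05, while 489 (2.43%) fell under 0.05 before adjustment. With replicate number within each tissue as a block, 2 genes were called. Among the genes that the naming rule put to this comparison, the smallest p was that of Eppk1, whose log2 fold change was lower in liver than in brain by a difference of −0.91 ± 0.18, with an adjusted p of 1.00 over all genes. Eppk1 was named for its small p in these same brain libraries, where its log2 fold change was 0.88. That choice favours a difference of this sign.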

How the data were processed

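The authors deposited a table of 55450 genes by 12 libraries, whose unit was taken from the values: estimated counts, of which 5.42% to 5.71% were not whole in the brain libraries. Per the submitters' processing notes, cutadapt and STAR were used with the build mm10; their versions, the counting tool, its strand setting and its treatment of reads that map to several places are not given in the sources used here. Counts were rounded to whole numbers. Genes were matched by identifier and symbol to GENCODE M21 (GRCm38), and all 55450 matched. The 6 brain libraries were fitted with edgeR 4.0.16 (filterByExpr, minimum count 10 and minimum total 15; TMM scaling; quasi-likelihood test with robust estimation; R 4.3.3), with Benjamini-Hochberg adjustment over all 18075 genes tested. The standard error was derived from the quasi-likelihood F (size of the log2 estimate over the root of F), and the 95% interval uses the total degrees of freedom. CPM are counts per 1000000 of the TMM effective library size. At 14844971 to 18567381 counts, 3 counts correspond to 0.165 to 0.198 CPM; this floor covers counting error only. Alternatives used DESeq2 1.42.0 and limma 3.58.1 (voom), other scalings and filters, each library left out and a cerebellar marker score (mean of log2(CPM + 1)) as a covariate. Scripts were tested on simulated data.

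The genes and the 53 gene lists were chosen with earlier results of these data known, and 4 lists (pancreatic acinar, pancreatic islet, neutrophil granule and Hox genes) were added after the libraries had been seen. The islet list had 1 tested gene, with a log2 fold change of 0.04 (−0.01 without wild-type brain 3). Named were the vault genes, the 8 genes of smallest unadjusted p in each direction (mean of at least 1 CPM, groups not overlapping), in each list the member of highest CPM per kilobase and the member of smallest p, the 5 narrowest intervals, the 4 largest loadings of each sign on the first component, and members of lists described singly. No sequence is reported here.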

Additional observations from a re-analysis of the deposited data

Results flagged for a closer look

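Knockout brain 3 held RNA of the exocrine pancreas, a signal outside the main comparison and far above its level in the control brains: 18 acinar genes summed to 11632 CPM in that library against 2.52, 3.42 and 3.70 CPM in the wild-type brains and 3.30 and 4.46 CPM in the other knockout brains. 3 of these genes passed the filter on low counts, with log2 fold changes of 3.22 (Rbpjl) to 8.63, and without that library the median of the 3 was 0.23. How the transcripts came to be in the library was not tested.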

How the results depend on the processing

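The count of 0 called genes held under every scaling, filter, test and left-out library that was run, and the count bounded within 2-fold stayed within 1.5 times of 13879, while its share went from 76.8% to 44.8% with a filter of at least 1 count in 1 library. The number of genes whose groups do not overlap was 1372 with a filter of at least 1 count in 1 library, where more genes were tested, and 1536 to 3277 with 1 library left out, where fewer libraries have to separate. With 1 library left out, the lowest list median ranged from −2.02 (choroid plexus, without knockout brain 1) to −0.18 and the highest from 0.58 to 1.86 (cerebellum, without wild-type brain 1). Of 2170 alternative values of 128 named results, 163 had the other sign, all without a call, and of 952 alternative list medians 115 had. Replicate numbers matched the brains in part. Deviations from the genotype mean correlated at 0.64 for number 1 and 0.65 for number 2 over 16675 genes. Between numbers 1 and 2 the correlations were −0.63 and −0.68. For number 3 the correlation was −0.01, and knockout brain 3 correlated at 0.07 and −0.06 with wild-type brains 1 and 2. With the numbers as a replicate block in edgeR, 0 genes were called in brain and 406 (2.25%) had an unadjusted p under 0.05. The interaction with liver then gave 2 called genes in place of 0, the cause of which was not tested. Among the level classes, genes under 1 CPM had the widest intervals by median, and regional markers varied widely between libraries. What set the width of these intervals was not tested. The covariate fit, the fits without both libraries of a number and the interval from the information matrix were chosen after seeing the data.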

Other observations

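Several smaller lists have not been described so far. Oligodendrocyte precursor markers had a median log2 fold change of −0.15 over 9 genes, which was 0.02 without wild-type brain 3. Neurogenesis and proliferation genes had a median of 0.08 over 12 tested genes, with the replication licensing gene Mcm5 at 3.33 to 4.10 CPM in wild type and 4.02 to 5.34 CPM in knockout, and the replication-dependent histone genes a median of −0.02 over 12. Meningeal fibroblast markers had a median of −0.14 over 9 genes, which was −0.32 without knockout brain 3 and 0.09 without knockout brain 2. Thalamic markers had a median of −0.41 over 6 genes, which was −0.10 without wild-type brain 3. Reactive glia and inflammation genes had a median of −0.17 over 7 tested genes. It was 0.10 without wild-type brain 3 and −0.47 without knockout brain 3. Olfactory bulb markers had a median of 0.11 over 5 tested genes. It was 0.02 without wild-type brain 3 and −0.03 without knockout brain 3. The serotonin synthesis gene Tph2, a raphe marker, was at 0.535, 0.827 and 8.12 CPM in wild type and at 1.06, 0.591 and 0.988 CPM in knockout, so wild-type brain 3 alone stood high. Growth hormone (Gh) transcripts, a product of the pituitary, were at 7.79, 0 and 1.87 CPM in wild type and at 8.05, 0.118 and 0 CPM in knockout, following brain 1 of each genotype. Hemoglobin transcripts of Hbb-bs were at 3.18 to 4.88 CPM in wild type and 3.02 to 5.79 CPM in knockout. The neutrophil gene S100a9 was highest in knockout brain 2 at 2.90 CPM, against 0.117 to 0.726 CPM in the other 5 brains.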
